A study of Homo sapiens with 6 samples.

Results

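The genes SST, NPY, VIP, CCK, TAC1, CRH, PVALB, CALB1, CALB2 and NOS1 mark subtypes of cortical interneurons, and MYT1L occupancy was described at these 10 of the 20037 protein-coding genes on chromosomes 1 to 22, X and Y. A gene's window was its body, as the RefSeq table of GRCh38.p14 gives it, and 5 kb beyond either end. A peak belonged to a gene when it shared at least 1 bp with that window. The rule that names the members uses no measured value. MYT1L peaks were listed at 9 of the 10 genes, beside 84.1% of all protein-coding genes. Only TAC1 and CRH had peaks of 3 or more libraries at the same place, beside 50.3% of all genes. That share was not matched for window length, and the members' windows were shorter (median 18.7 kb against 34.1 kb). VIP had no peak, as was so for 15.9% of all genes, and no IgG peak lay in any of the 10 windows, beside 4.16% of all genes with one.

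Occupancy was measured by CUT&RUN, a method that cuts and sequences the DNA lying next to a protein bound by an antibody. The antibody recognized MYT1L in 4 libraries, and in the other 2 it was IgG, which has no target on chromatin and shows the background. All 6 libraries carry the same labels apart from the antibody. Those labels are WT (wild type), the H1 human embryonic stem cell line, time point D30 (day 30) and passages p10-p60. The series' design text calls the cells cortical interneurons derived from stem cells, whereas the cell type on each sample is embryonic stem cells, and peak lists do not show which interneuron markers the cells expressed. A single cell line was used, and the labels do not say whether the libraries came from separate cultures, so the spread between them may be technical.

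Cortical interneurons are inhibitory neurons that release GABA, and they are sorted into subtypes by the neuropeptides and calcium-binding proteins they make. Cells marked by SST or PVALB arise mostly in the medial ganglionic eminence of the embryonic forebrain, and cells marked by VIP or CALB2 mostly in the caudal one. MYT1L is a zinc-finger transcription factor of neurons, known for holding genes of other cell types silent, and the MYT1 family binds DNA at the core sequence AAGTT.

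On the chromosomes used, the MYT1L lists held 27926, 12310, 18966 and 30086 peaks in replicates 1 to 4 and the IgG lists held 976 and 998. Read totals are not given in the sources used here. From the fold and p of the peaks, the genome-wide background, which grows with depth, was estimated as 5.99, 2.25, 5.26 and 4.78 fragments per kb in the MYT1L libraries and as 1.55 and 0.949 in the IgG libraries. Every MYT1L library was therefore deeper than either control. In the MYT1L lists the peaks' own names count samples 1 higher than the titles do, and the titles were followed here.

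RefSeq promoters, from 250 bases before to 50 after a transcription start, were on hand for 7 of the 10 genes, as 9 promoters. Those of CRH, CALB1 and CALB2 had no entry. The promoters shown are the 2 that a MYT1L peak overlapped (NPY, and an inner start of PVALB), the inner promoter of CCK, which had a peak beside it, and that of VIP, the gene without a peak. NPY lies on the plus strand at chr7:24283940-24284239, PVALB on the minus strand at chr22:36816986-36817285, CCK on the minus strand at chr3:42263898-42264197 and VIP on the plus strand at chr6:152750547-152750846, all in GRCh38.p14. They are written 5′ to 3′ on the strand of the gene, and capitals mark the core AAGTT, or AACTT where it lies on the other strand.
NPY promoter: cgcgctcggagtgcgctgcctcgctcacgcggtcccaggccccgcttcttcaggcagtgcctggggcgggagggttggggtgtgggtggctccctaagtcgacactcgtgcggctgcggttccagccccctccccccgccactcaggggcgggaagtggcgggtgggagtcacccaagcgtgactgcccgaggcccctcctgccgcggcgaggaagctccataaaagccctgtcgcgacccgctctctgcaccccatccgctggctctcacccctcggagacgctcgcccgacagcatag
PVALB inner promoter: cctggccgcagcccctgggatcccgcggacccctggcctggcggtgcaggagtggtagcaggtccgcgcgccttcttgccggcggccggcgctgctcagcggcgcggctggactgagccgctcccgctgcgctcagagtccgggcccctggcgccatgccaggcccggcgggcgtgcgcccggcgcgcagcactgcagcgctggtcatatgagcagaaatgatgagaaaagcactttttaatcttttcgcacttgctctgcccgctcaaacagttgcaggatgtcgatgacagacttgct
CCK inner promoter: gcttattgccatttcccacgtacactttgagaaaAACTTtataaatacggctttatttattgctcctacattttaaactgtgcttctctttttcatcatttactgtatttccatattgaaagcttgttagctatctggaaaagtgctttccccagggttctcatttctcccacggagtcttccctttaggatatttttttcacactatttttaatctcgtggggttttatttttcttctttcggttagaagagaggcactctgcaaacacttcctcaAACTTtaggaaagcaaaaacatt
VIP promoter: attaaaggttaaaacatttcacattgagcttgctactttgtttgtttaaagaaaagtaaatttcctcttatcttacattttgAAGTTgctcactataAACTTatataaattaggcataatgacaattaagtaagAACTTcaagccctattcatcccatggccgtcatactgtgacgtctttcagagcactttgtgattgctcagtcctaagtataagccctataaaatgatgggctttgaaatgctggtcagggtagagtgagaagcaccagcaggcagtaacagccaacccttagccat
The core was in 3 of the 9 member promoters, with 3 matches in that of VIP and 2 each in inner ones of NOS1 and CCK. All 3 were without a peak. The only NOS1 start on hand, at 117309410, lies inside the gene, and the gene's 5′ end had no entry. The other 4 promoters without a peak and the 2 with a peak did not hold it. Over both strands, AAGTT was in 34.0% of all 35116 promoters of the table, in 21.7% of the 15839 that a MYT1L peak overlapped and in 44.2% of the 19277 that none overlapped. The longer form AAAGTTT, which contains AAGTT, was in 4.28% of all promoters, and its 2 matches in the members both lay in the inner promoter of CCK. Base composition moved with this: the median GC content was 67.3% in promoters with a MYT1L peak and 48.7% in those without, against 71.0% for NPY, 67.3% for the inner PVALB promoter, 35.7% for the inner CCK promoter and 37.3% for VIP. Its part in the shares of the core was not tested. The overlapped share of members, 2 of 9 promoters, stood beside 45.1% of all promoters.

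The 10 windows together held 4, 3, 4 and 10 peaks in MYT1L replicates 1 to 4, a mean of 5.25 ± 3.20 (SD, n = 4), and 0 in both IgG libraries. The groups did not overlap, and MYT1L replicate 4 held 10 of the 21 peaks. Per 10000 peaks of each list this was 1.43, 2.44, 2.11 and 3.32. The controls' 0 has a limit that comes from their depth and their calling cut. The MYT1L peaks were thinned to the estimated depth of each IgG library. A peak was kept if it reached that IgG list's lowest −log10 p. These cuts, 5.54 and 5.58, were stricter than the lowest −log10 p of the MYT1L lists, 4.24 to 4.73. For IgG replicate 1, 0.795, 1.63, 0.519 and 1.80 peaks per MYT1L library were expected to be kept. For IgG replicate 2 it was 0.243, 0.765, 0.314 and 0.811. At the controls' estimated depth and cut the MYT1L lists themselves would thus hold under 2 peaks per library at these genes. Antibody, depth and cut therefore cannot be told apart here.

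By library, 3, 3, 4 and 8 of the 10 genes had a peak in MYT1L replicates 1 to 4, beside 68%, 43%, 57.3% and 77.6% of all protein-coding genes. In IgG replicates 1 and 2 it was 0 and 0 of 10, beside 1.61% and 2.9%, and 4.16% of all genes had a peak of either IgG library. Replicate 1 had a long list and few members with a peak, and replicate 4 had a peak at about as large a share of members as of all genes.

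A MYT1L peak of at least 1 library was present at 9 of the 10 genes, beside 84.1% of all protein-coding genes. The members differed more from the background in how many libraries shared a gene. SST, NPY and CCK had peaks in 1 library (3 genes, beside 11.8% of all genes), and PVALB, CALB1, CALB2 and NOS1 in 2 (4 genes, beside 15.4%). TAC1 had them in 3 (24% of all genes) and CRH in all 4 (32.8% of all genes), while 15.9% of all genes had none, as VIP did. A reproducible region, a stretch of overlapping MYT1L peaks from at least 3 of the 4 libraries, lay in the windows of 2 members, TAC1 and CRH, beside 50.3% of all protein-coding genes. A region shared by at least 2 libraries lay at 4 members, TAC1, CRH, PVALB and CALB1, beside 67.3% of all genes. The members' windows were shorter, with a median of 18.7 kb against 34.1 kb. The median number of MYT1L peaks per gene, summed over the libraries, was 2 against 3. The shares of all genes above are not matched for length. Among genes of similar window length, the share with a reproducible region was 26.2% for SST and CRH. It was 36.3% for NPY, VIP, CCK and TAC1, 48.9% for PVALB, 53.3% for CALB1 and CALB2 and 72% for NOS1. The part of window length in the members' counts was not tested.

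**Figure D1:**
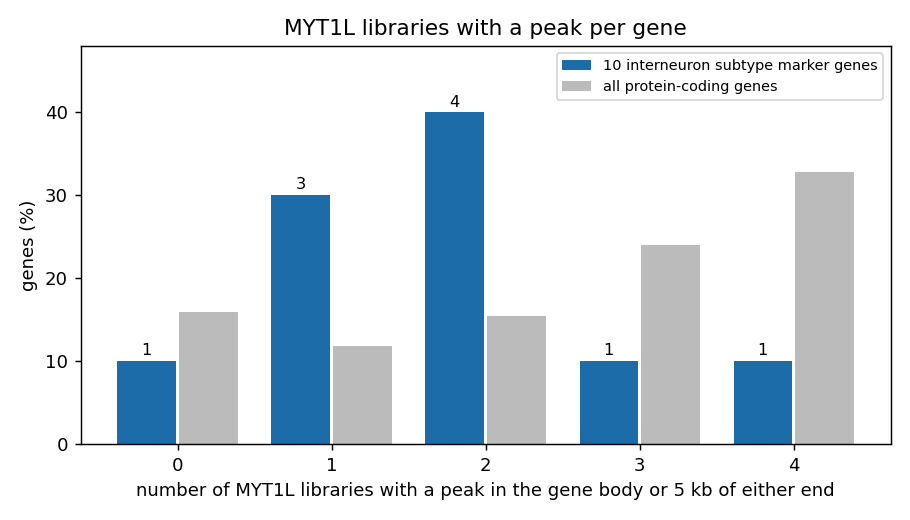
Share of genes (%, vertical axis) by the number of MYT1L libraries with a peak in the gene body or 5 kb of either end (horizontal axis), for the 10 marker genes (blue, with the number of genes above each bar) and all 20037 protein-coding genes (grey). The marker genes gather at 1 and 2 libraries (7 of 10 genes), and 2 of them reach 3 or 4 libraries, beside 56.8% of all genes. The grey shares are not matched for window length, which was shorter in the marker genes.

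Among the neuropeptide genes, CRH had the broadest support. CRH encodes corticotropin-releasing hormone, the peptide that starts the hormonal stress response and is made in the cortex by a subset of interneurons. The gene spans 2089 bp on chromosome 8 from 66176376 to 66178464. It had 2, 1, 1 and 1 peaks in MYT1L replicates 1 to 4 and 0 and 0 in the IgG libraries, so it was the only member whose groups did not overlap, as was the case for 30.6% of all protein-coding genes. The exact permutation test over the 15 ways to assign 4 of the 6 libraries to MYT1L, two-sided as 2 times the smaller one-sided p, gave p = 0.133, the smallest that this form of the test can give here, and 0.436 after Benjamini-Hochberg adjustment over all genes.

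A single region of 585 bp inside CRH, on chromosome 8 from 66177022 to 66177606, was shared by all 4 MYT1L libraries, and 27.1% of protein-coding genes had a region of that support. Among genes with windows as short (10.1 to 13.1 kb, the shortest of 10 classes by length), 26.2% had a reproducible region. The fold over background, as the authors deposited it, was 7.04, 5.91, 4.88 and 7.13 in replicates 1 to 4 (6.24 ± 1.07, SD, n = 4), and the −log10 q was 9.14, 4.95, 3.75 and 9.02. Replicates 1 and 4 were the stronger pair and replicate 3 the weakest. The summits lay 926, 1013, 1077 and 844 bp above the gene's lower-coordinate end, within 233 bp of each other and near the middle of the gene, and 352 bp were common to all 4 peaks. The mean fold exceeded that of 33.8% of the 5952 regions shared by all 4 libraries, so the region was of moderate strength for its class. A further peak of replicate 1 alone, on chromosome 8 from 66178005 to 66178242 with a fold of 5.41, had its summit 253 bp from the upper-coordinate end. TRIM55 is the nearest other protein-coding gene, ending 890 bp below CRH, and the summits of the shared region were 1735 to 1968 bp from that end.

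TAC1 encodes the precursor of substance P and neurokinin A, peptides of the tachykinin family. It lies on chromosome 7 from 97732086 to 97740472, on the plus strand. TAC1 had 0, 1, 1 and 1 peaks in MYT1L replicates 1 to 4 and none in IgG. Replicate 1, the deepest library by the estimate above, was thus the only MYT1L library without a peak there. The peaks of replicates 2, 3 and 4 had folds of 5.63, 6.29 and 5.52 (5.81 ± 0.413, SD, n = 3) and −log10 q of 4.38, 6.46 and 5.38. They formed a region from 97733278 to 97733700, with summits 1322, 1421 and 1465 bp downstream of the start and 57 bp common to all 3. The mean fold exceeded that of 45.8% of the 6347 regions shared by 3 libraries. The permutation test of its peak numbers gave p = 0.4 (exact, two-sided).

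SST, NPY and CCK each had peaks in 1 MYT1L library. SST encodes somatostatin, an inhibitory peptide and the marker of a main interneuron class, and occupies 1483 bp on chromosome 3 from 187668912 to 187670394. SST had a peak in replicate 3 only, from 187669739 to 187670231, with a fold of 4.88, a −log10 q of 3.75 and a summit 292 bp downstream of the start. That peak lay on the gene's side of the promoter and did not reach its 300 bases.

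NPY encodes neuropeptide Y, a peptide of interneurons that often also make SST, and lies on chromosome 7 from 24284190 to 24291862, inside the noncoding gene LOC107986777. NPY had 2 peaks in replicate 4 and none elsewhere. The stronger, from 24283829 to 24284348, covered the whole NPY promoter shown above, with a fold of 5.91, a −log10 q of 6.22 and its summit 127 bp downstream of the start. The weaker, from 24285212 to 24285417, had a fold of 4.52 and a −log10 q of 3.49.

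CCK encodes cholecystokinin, a peptide of basket cells, and lies on chromosome 3 from 42257826 to 42266185. CCK had 1 peak, in replicate 4, from 42263326 to 42263635, with a fold of 4.40 and a −log10 q of 3.53. Its summit was 522 bp downstream of the inner start whose promoter is shown above. Neither CCK promoter was overlapped by a peak.

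VIP encodes vasoactive intestinal peptide, the marker of interneurons that mostly inhibit other interneurons. VIP, on chromosome 6 from 152750797 to 152759760, had 0 peaks in each of the 6 libraries. Among the 2004 protein-coding genes of the same class of window length (16.4 to 20.8 kb, the third of 10 classes), 24.9% had no MYT1L peak either. Of the other members in that class, TAC1 had a reproducible region, as did 36.3% of the class, and NPY and CCK did not.

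**Figure D2:**
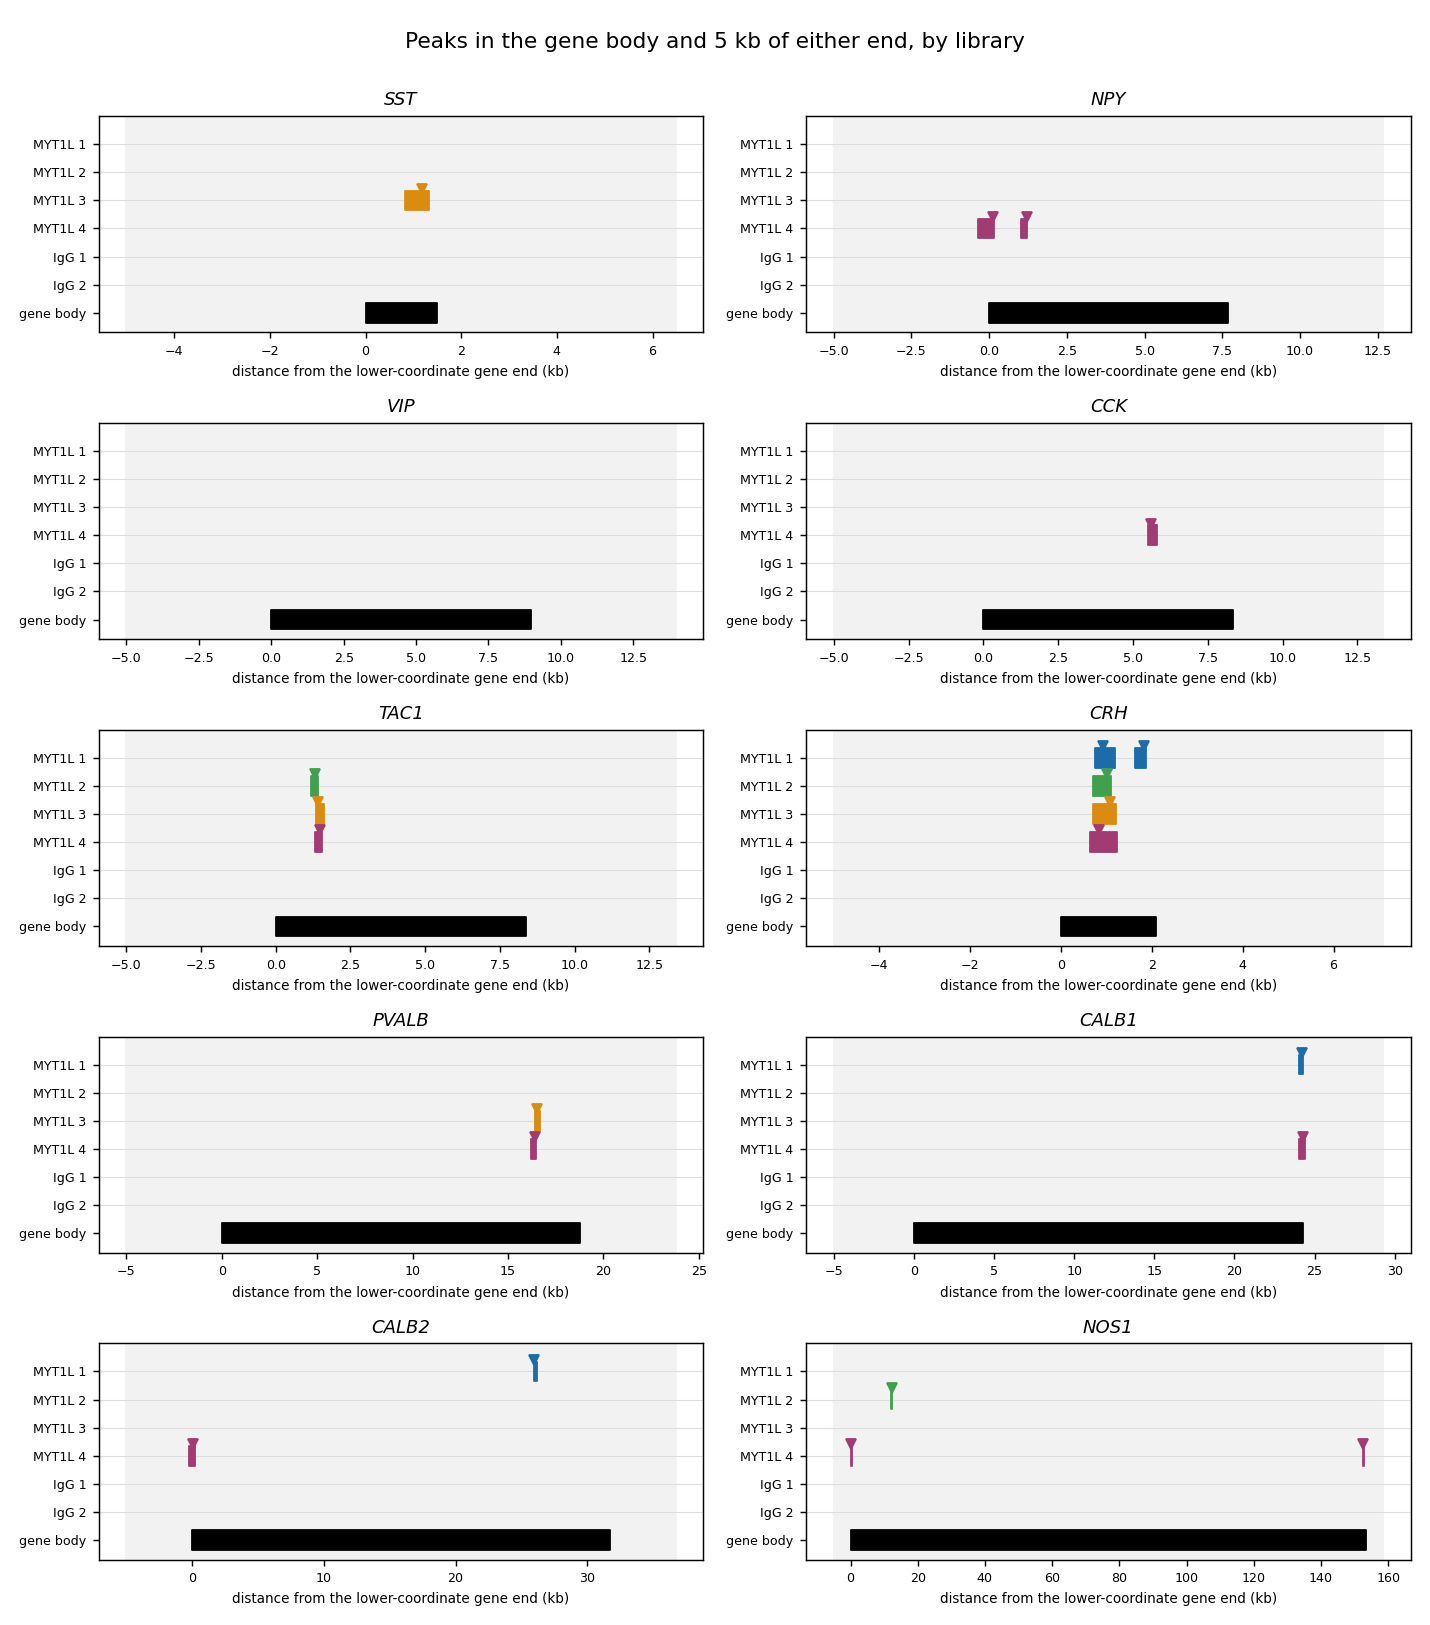
Peaks (coloured bars) and their summits (triangles) in each of the 6 libraries (rows) along the 10 genes, against the distance from the gene's lower-coordinate end in kb; the black bar is the gene body and the grey field the window. Peaks of different libraries are stacked at TAC1, CRH, PVALB and CALB1, lie apart at CALB2 and NOS1, and are in no row for IgG.

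The calcium-binding protein genes PVALB, CALB1 and CALB2 each had peaks in 2 MYT1L libraries. PVALB encodes parvalbumin, the calcium buffer of fast-spiking interneurons, and lies on chromosome 22 from 36800703 to 36819499, on the minus strand. PVALB had 0, 0, 1 and 1 peaks in MYT1L replicates 1 to 4, with folds of 4.19 in replicate 3 and 4.47 in replicate 4 (4.33 ± 0.199, SD, n = 2) and −log10 q of 3.28 and 4.60. The peaks shared 42 bp and formed a region from 36816938 to 36817395 over the inner promoter shown above, with summits 190 and 73 bp upstream of that start. The promoter at the gene's outer end was free of peaks. The mean fold exceeded that of 14.6% of the 8267 regions shared by 2 libraries, so this was a weak region. In PVALB's class of window length, 48.9% of genes had a reproducible region.

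CALB1 encodes calbindin D28k, a calcium buffer found in many SST interneurons. CALB1 lies on chromosome 8 from 90058608 to 90082879 and had 1, 0, 0 and 1 peaks in MYT1L replicates 1 to 4. The folds were 5.04 in replicate 1 and 6.86 in replicate 4 (5.95 ± 1.29, SD, n = 2), and the −log10 q were 4.35 and 7.95. The summits were 50 and 11 bp inside the upper-coordinate end, nearer to a gene end than any other member peak, and 199 bp were common to both. The mean fold exceeded that of 75.3% of the regions shared by 2 libraries.

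CALB2 encodes calretinin, a calcium buffer of interneurons that often also make VIP. CALB2, on chromosome 16 from 71358723 to 71390433, had the same peak numbers as CALB1 (1, 0, 0 and 1), but its peaks did not coincide. The peak of replicate 1, from 71384637 to 71384900, had a fold of 4.83 and a −log10 q of 5.11. Its summit lay inside the gene, 5763 bp from the upper-coordinate end. The noncoding gene LOC105371332, from 71367249 to 71383833 within CALB2, has an end nearer to that summit than either end of CALB2. The peak of replicate 4, from 71358499 to 71358925, crossed the lower-coordinate end with its summit 76 bp inside, and had a fold of 4.77 and a −log10 q of 5.07. CALB1 and CALB2 are in the same class of window length, in which 53.3% of genes had a reproducible region.

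NOS1 encodes neuronal nitric oxide synthase, which makes the diffusible messenger nitric oxide and marks long-range and neurogliaform interneurons. NOS1 is the longest member, with 153485 bp on chromosome 12 from 117208142 to 117361626, on the minus strand. It had 0, 1, 0 and 2 peaks in MYT1L replicates 1 to 4, at 3 separate places. In replicate 2 the fold was 4.53 with a −log10 q of 2.81, at 12193 bp from the lower-coordinate end. In replicate 4 the folds were 4.65 and 5.09 with −log10 q of 4.10 and 5.87. The former peak was 275 bp from the lower-coordinate end, which is the 3′ end. The latter was 845 bp from the upper-coordinate end, which is the 5′ end and had no promoter entry. No place was shared, although NOS1 falls in the class with the longest windows, where 72% of genes had a reproducible region and the median gene had 7 MYT1L peaks over the 4 libraries against the 3 of NOS1.

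**Figure D3:**
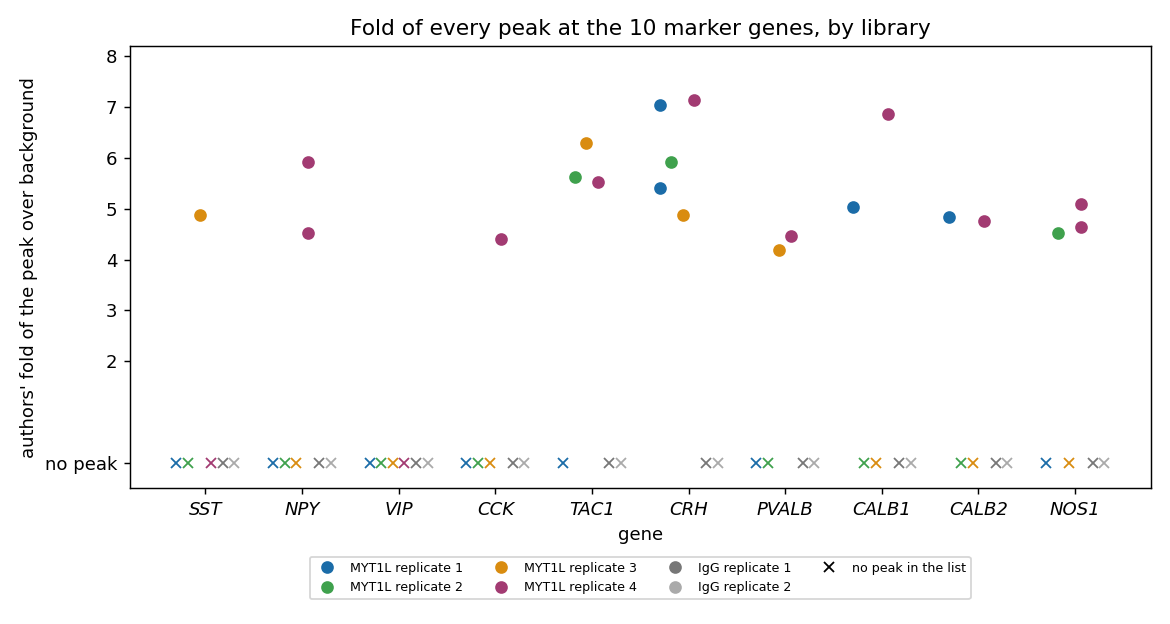
The authors' fold over background (vertical axis, linear) of each of the 21 peaks at the 10 genes (horizontal axis), coloured by library; crosses mark libraries whose list has no peak in that gene's window. All peaks lie between 4.19 and 7.13, CRH has points in the 4 MYT1L libraries, and both IgG libraries have crosses at every gene.

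All 21 member peaks rested on few fragments. From the fold and p, each had 7 to 16 fragments at its summit (median 11) against a local background of 0.421 to 2.13 fragments. The fold ranged from 4.19 to 7.13 with a median of 5.04, and the −log10 q from 2.81 to 9.14 with a median of 4.95. Ranked within its own list, the median member peak exceeded 36.9% of peaks by −log10 q and 47.6% by fold. Of the 21 peaks, 15 were below their list's median −log10 q, and 4 of the 6 above it were at CRH, the others being at TAC1 and CALB1. The peak of highest rank was that of CRH in replicate 1, above 82.4% of its list, and the lowest was that of NOS1 in replicate 2, above 8.23%.

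**Figure D4:**
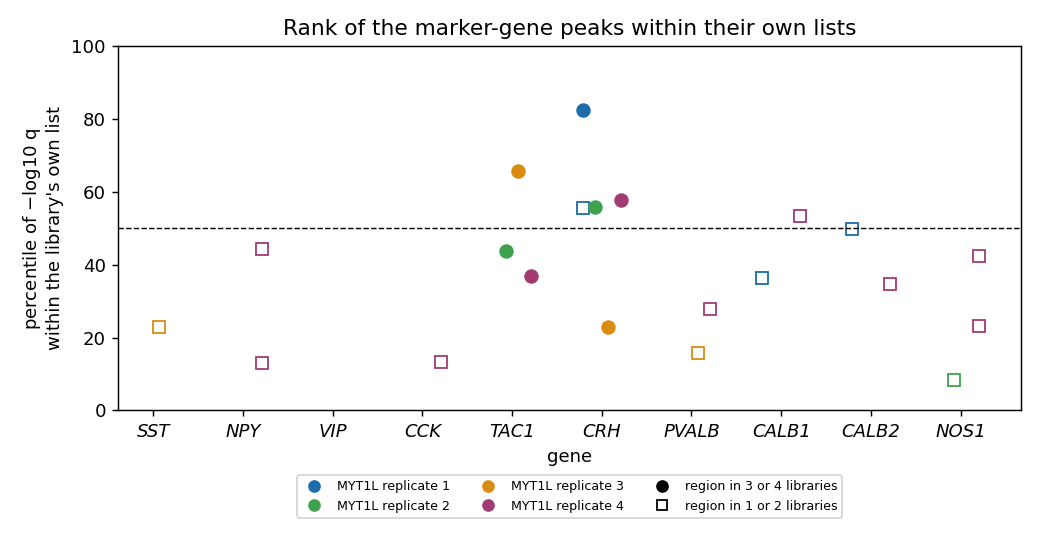
Percentile of each member peak's −log10 q within its own library's list (vertical axis, 0 to 100, dashed line at 50) by gene (horizontal axis); colours give the library, filled circles are peaks in regions of 3 or 4 libraries and open squares those in regions of 1 or 2. Most points lie under the line (15 of 21), and CRH has 4 of the 6 above it.

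The weak peaks made the counts depend on strength. With a −log10 q of at least 5, NPY, TAC1, CRH, CALB1, CALB2 and NOS1 still had a peak (6 genes, beside 74.2% of all genes), but no member had a reproducible region, beside 31.4% of all genes. When each list was cut to as many top peaks as the shortest MYT1L list holds, 3 members had a peak. Those were TAC1, CRH and NOS1, beside 70.6% of all genes. None had a reproducible region, beside 35.9%. These shares of all genes were not matched for window length.

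Within the windows, all 21 summits lay inside the gene body. The bodies make up 72.6% of the 10 windows, or 55.4% without NOS1. Over all 76558 pairs of a MYT1L peak and a protein-coding gene's window, 67.6% had the summit inside the body. Among genes in the class with the shortest windows, to which SST and CRH belong, the share was 44.3%. In the class of NPY, VIP, CCK and TAC1 it was 53.2%. It was higher in the classes with longer windows: 58.7% in that of PVALB, 61.5% in that of CALB1 and CALB2 and 85.9% in that of NOS1. Of the 21 summits, 10 were within 1 kb of a gene end. These shares are descriptions, since overlapping peaks of the same place count more than once.

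The nearest reproducible regions outside the windows lay at other protein-coding genes, except that of VIP. The median distance from a member's body to the nearest reproducible region was 71.8 kb, against 4.62 kb over all protein-coding genes. Such a region lay within 20 kb of 3 of the 10 members, beside 60.6% of all genes. The distance is 0 where a region lies over the gene, as at TAC1 and CRH. It thus partly restates the count of genes with a region, and it was not matched for gene length. Apart from TAC1 and CRH, the nearest was that of NOS1, 17.5 kb beyond its 3′ end. It lay on chromosome 12 from 117189796 to 117190610, was shared by all 4 libraries with a fold of 6.80 ± 1.28 (SD, n = 4), and its centre was 267 bp from an end of FBXO21. For CALB1 the nearest such region was 56.5 kb away at DECR1, for CALB2 69.0 kb away at CMTR2 and for SST 75.1 kb away at BCL6. PVALB (232 kb, at KCTD17), CCK (243 kb, at TRAK1) and NPY (281 kb, at PALS2) were farther off. For VIP the nearest such region was 74.6 kb above the gene, inside the noncoding gene LINC02840. No other protein-coding gene had an end nearer to that region than VIP.

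Other genes had the same numbers of peaks in all 6 libraries as a member. For CRH there were 287 such genes with CRH included (1.43% of protein-coding genes), and those nearest to it in window length were GNRH2, SPAAR and MRPS26. For TAC1 there were 192 (0.958%), with CHRNG, LOC124902530 and ATP5MF the nearest. The empty pattern of VIP was shared by 3184 genes (15.9%), with TRIM48, OR7A5 and OR13G1 the nearest. Each member thus shared its pattern with other genes, from the 57 of NOS1 to those of VIP. CALB1 and CALB2 shared theirs with 934 genes (4.66%), CCK with 1068 (5.33%), PVALB with 490 (2.45%), NPY with 252 (1.26%), SST with 245 (1.22%) and NOS1 with 57 (0.284%). The nearest in length were CFAP418, DAD1 and SEC14L3 for CALB1, CADM3, RHAG and RLIM for CALB2, and NUDT14, KCNK16 and HOXD11 for CCK. They were PSG5, ZNF852 and PSMC1 for PVALB, CDC42EP2, PEAK3 and MYG1 for NPY, NPPB, SPRR2D and UTF1 for SST, and ZDHHC15, SLC1A2 and KIAA0586 for NOS1.

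The receptors and binding partners of the members' products were described next. A list of 19 such genes held 18 with a MYT1L peak and 8 (42.1%) with a reproducible region, beside 84.1% and 50.3% of all protein-coding genes, and none had an IgG peak, beside 4.16%. NOS1AP, an adaptor protein of NOS1, had the highest mean fold among the 6 named by the rule and also the longest window of them, 311 kb. That window held 11 peaks in 8 regions, and the highest fold need not come from the reproducible one. Taking the highest fold in the window per library, the mean was 8.24 ± 3.16 for NOS1AP, 6.12 ± 1.52 for CRHBP, the secreted protein that binds CRH, and 4.84 ± 0.706 for the NPY receptor gene NPY2R (SD, n = 4 each). It was 5.61 ± 1.42 for the VIP receptor gene VIPR2 and 6.09 ± 1.29 for GUCY1B1 (SD, n = 4 each). The VIPR2 window of 127 kb held 15 peaks in 11 regions. Its reproducible region held 3 libraries, so not all of its folds came from that region. For GUCY1A1, which with GUCY1B1 encodes the nitric oxide receptor, it was 7.38 ± 0.642 (SD, n = 3), with no peak in replicate 2. CRHBP had 2, 1, 1 and 1 peaks in replicates 1 to 4, the same numbers as CRH.

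A list of 20 other genes used as interneuron subtype markers held 17 with a MYT1L peak and 8 (40%) with a reproducible region, beside 84.1% and 50.3% of all protein-coding genes. None had an IgG peak, beside 4.16% of all genes. Those named by the rule were CNR1, the cannabinoid receptor of CCK basket cells (6.78 ± 1.33), RELN, the secreted protein reelin (5.85 ± 0.791), and ID2, a helix-loop-helix inhibitor (5.49 ± 0.971), as mean highest fold with SD over n = 4 libraries. NCALD had 5.34 ± 0.521 and KIT, a receptor tyrosine kinase, 5.15 ± 1.30 (SD, n = 4 each). PTHLH, a secreted hormone-like peptide, had 5.81 ± 0.689 (SD, n = 3). The windows of RELN and NCALD were long, 528 and 448 kb, and their highest folds need not come from the reproducible region. That of NCALD held 3 libraries, so not all of its folds came from it. ID2, with a window of 12.4 kb, had 3, 2, 1 and 3 peaks in 2 reproducible regions, whereas SST and CRH, in the same length class, had 0 and 1 such regions. The median windows of the lists, 38.1 and 25.7 kb, were longer than that of the members.

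No protein-coding gene, members included, passed an adjusted p of 0.05 in the permutation test of peak numbers, and none had an unadjusted p below 0.05, since this two-sided p cannot go below 0.133 with 4 libraries against 2. Members other than CRH and TAC1 had p between 0.8 and 1 (exact, two-sided). Support across libraries, and not this test, is therefore the replicate check behind the counts above.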

How the data were processed

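CUT&RUN peak lists of 6 libraries of H1 cells (4 MYT1L, 2 IgG) were used. The submitters' processing notes name MACS2 and hg38; thresholds, version and control library are not given in the sources used here. Each list is of 1 library and has no header. The authors deposited a fold over background (a ratio), a −log10 p, a −log10 q and a score per peak. Fold, p and q served to rank, filter or describe the peaks of their list. Folds were also averaged over libraries, with no adjustment for depth, and these means were ranked among regions of equal support. Pileup and depth were estimated from fold and p. Coordinates count from 1. Groups come from sample titles.

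Peaks were joined to protein-coding genes of the RefSeq table (GRCh38.p14) with Python 3.11.15, pandas 2.3.3 and scipy 1.17.1, needing 1 bp of overlap. MYT1L peaks connected by overlap formed 49028 regions, of which those with 3 or more libraries were called reproducible. A whole-number pileup that gave both the deposited fold and −log10 p within 0.002 was found for 100% of the peaks checked (up to 3000 per library), assuming the caller's formulas. Depth was estimated from the most frequent background value among the peaks checked, divided by a fitted fragment length. Joins, pileups and the permutation test were tested on simulated data. Genes were put into 10 classes of equal size by window length. Peak numbers were compared by exact permutation (2 times the smaller one-sided p), adjusted over all genes.

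The members and lists were chosen with earlier results of these data known, so shares of all genes stand in place of list tests. The 10 members were named whatever their values. From the other lists, up to 6 genes with a reproducible region were named, by libraries and then fold. Like genes are the 3 nearest in window length with equal peak numbers. Windows, overlap rule, q, list length, IgG peaks, libraries, block and depth were varied.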

Additional observations from a re-analysis of the deposited data

Results flagged for a closer look

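The number of peaks in the 10 windows set MYT1L replicate 4 apart: it held 10, against 4, 3 and 4 in replicates 1 to 3, and the gap made up 0.857 of the range of the 4 libraries. Divided by list length the values were 3.32, 1.43, 2.44 and 2.11 per 10000 peaks, with a gap of 0.469 of the range, which is under the limit. The ratio was 1 for the peak numbers of 5 single genes, where it follows from whole numbers that differ in 1 library only. Those were SST (a peak in replicate 3), NPY and CCK (replicate 4), TAC1 (none in replicate 1) and CRH (2 in replicate 1). Chance marks about 1 in 20 groups of independent values, and these counts of 0, 1 and 2 are coarser than that rule assumes.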

How the results depend on the processing

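Lists of called peaks hold no value where no peak was called, and 7 to 16 fragments per summit limit each call. The number of members with a MYT1L peak, 9, was 3 with equal numbers of top peaks and 6 to 9 in the other 12 alternatives. The number with a reproducible region, 2, fell to 0 under both stricter selections (−log10 q from 5 up, and top peaks in equal number), which leave fewer peaks. It was 4 with at least 2 libraries (TAC1, CRH, PVALB and CALB1), 1 with all 4 (CRH), and 2 to 4 when each library was left out. The 4 came without MYT1L replicate 2, with 2 of the other 3 libraries then needed. CRH and TAC1 remained in each of the 4 fits without a MYT1L library. That was certain, since their regions held 4 and 3 libraries and only 2 were then needed. The mean number of peaks, MYT1L minus IgG, was 5.25 per library. Keeping peaks of −log10 q from 5 up gave 2.5, and top peaks in equal number gave 1.25. Thinning the MYT1L libraries to the estimated depth of IgG replicates 1 and 2, with the cuts of those lists, gave 1.19 and 0.533. The difference was 3.67 to 6 when each library was left out, lowest without MYT1L replicate 4. With a replicate block over the shared numbers 1 and 2 it was 3.5. The titles do not say that a number pairs libraries, and over 2940 bins of 1 Mb the deviations of same-numbered libraries correlated at 0.0344 and 0.0583. The per-gene permutation test called 0 genes in all 8 alternatives. It could call none, since its smallest p was 0.133 to 0.4 in them. Of 90 alternatives for single genes, 10 took the difference to 0. None could reverse it, since both IgG libraries had 0 peaks at every member.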
